A study of Mus musculus with 2 samples.

Results

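The transcripts of 10 cadherin genes (Cdh1, Cdh2, Cdh3, Cdh4, Cdh5, Cdh6, Cdh10, Cdh11, Cdh13 and Cdh15) were examined in cultured mouse dermal cells after knockdown of β-catenin. They were taken by gene symbol from 19938 genes that had a probe set annotated to exactly 1 symbol. Each of the 10 had 1 such probe set. Cells from the dorsal skin dermis of newborn (P0) C57BL/6 mice were grown in medium with 10% fetal bovine serum for 24 h and then transfected at 10 nM for 48 h, either with siRNAs specific for β-catenin (1 array) or with a control siRNA (1 array). No genetic change is named for either group, and both cultures were transfected. A small interfering RNA (siRNA) directs cleavage of a matching messenger RNA. The labels name no sorting of the primary isolate, and the number of pups or cultures behind each array is not given in the sources used here.

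Cadherins are transmembrane proteins that hold neighbouring cells together through calcium-dependent contacts between their extracellular repeats. The cytoplasmic tail of classical (type I) and type II cadherins binds β-catenin, which links the cadherin through α-catenin to actin. The same β-catenin protein acts in the nucleus as the effector of canonical Wnt signalling, so its transcript serves both pools. Fibroblasts are known for N-cadherin and cadherin-11, epidermis for E-cadherin and P-cadherin, and endothelium for VE-cadherin.

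Values are log2 values from robust multi-array average (RMA), and a difference is the β-catenin siRNA value minus the control siRNA value. With 1 array per group no difference could be set against the spread between cultures, so sizes are given with no test. A gene was kept when the higher of its values reached 5.13, the median of all gene means, which left 10197 genes. The robust SD of the difference over kept genes (1.4826 times the median absolute deviation) was 0.22, and their median difference was -0.02. The robust SD among the 500 genes nearest in level is given as the local SD. It mixes array noise, culture differences and any siRNA effect. The target Ctnnb1 had 9.34 on the β-catenin siRNA array and 10.48 on the control array, which is 45.2% of the control signal. Array signals depend on the probes, so amounts of RNA are compared only between arrays, for the same gene or the same list. The level filter and the words dim and bright refer to probe set signal. The summed linear signal of a list is set mostly by its brightest probe sets. The 14 measured fibroblast markers were all kept, with a summed linear signal of 46127 on the β-catenin siRNA array and 42104.5 on the control array.

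Of the 10 cadherins, 8 were kept, and 3 of these (37.5%) differed by at least 1.5-fold. Cdh4 and Cdh1 were higher after β-catenin siRNA and Cdh6 was lower. Over all kept genes, 4.60% differed by at least 1.5-fold, 2.76% higher and 1.84% lower. Only Cdh4 of the kept cadherins passed 2-fold, against 0.912% of all kept genes that were higher by that size. By any amount, 5 of the 8 were higher and 3 lower, against 4670 higher and 5387 lower of all kept genes. The median difference was 0.13 over the 8 kept cadherins and 0.09 over all 10, against -0.02 over all kept genes and -0.02 over all genes without the level filter. Cdh4 passed the filter only through its β-catenin siRNA value, so its presence among the kept genes is tied to its difference.

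**Figure D1:**
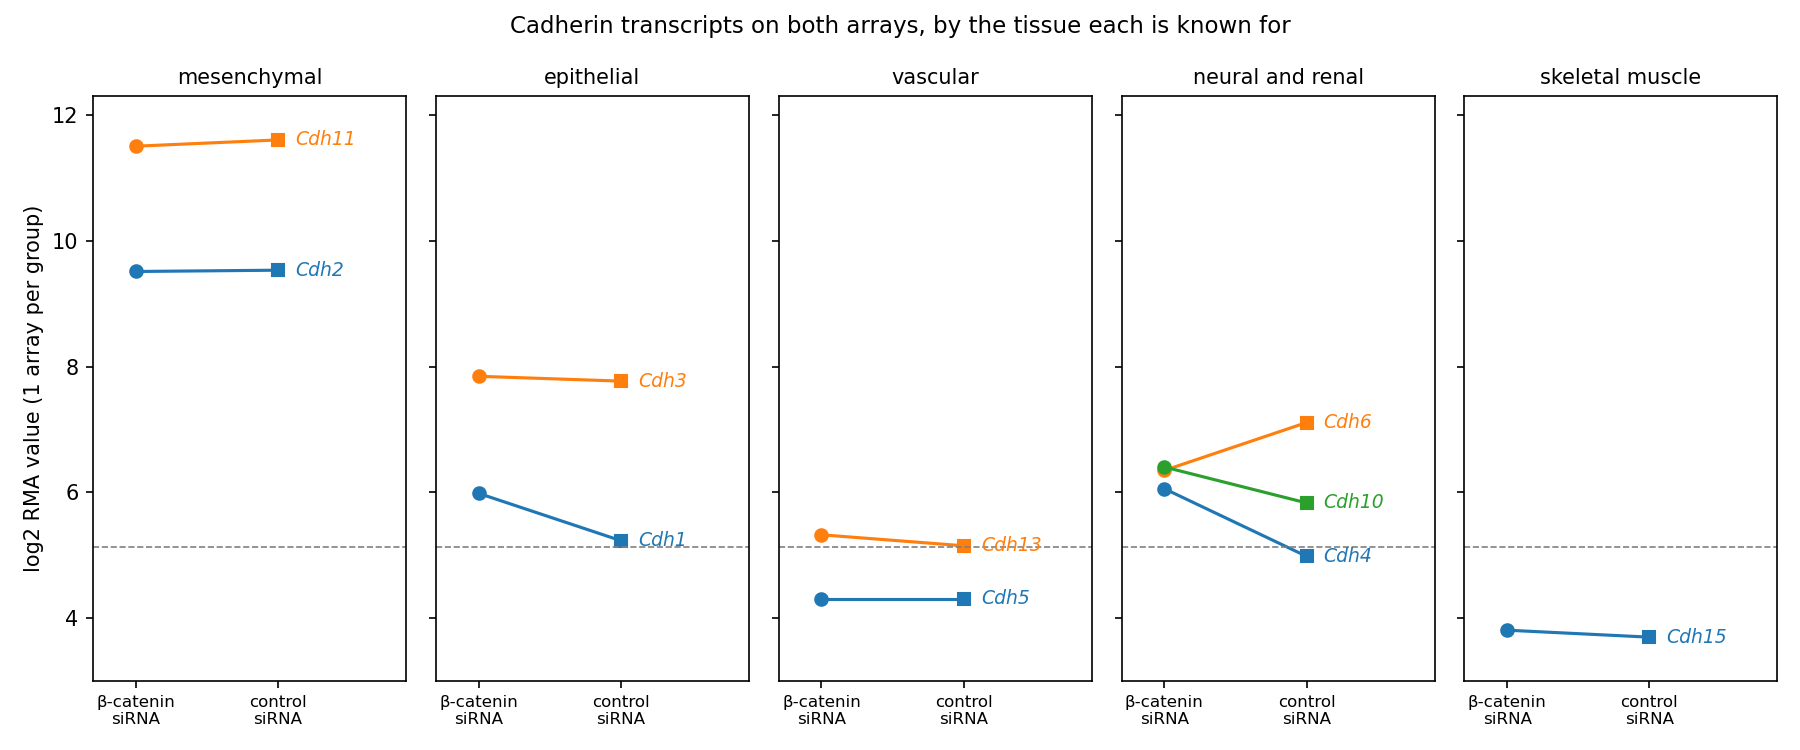
Log2 RMA values of the 10 cadherins on the β-catenin siRNA array (circles, left) and the control siRNA array (squares, right), in panels by the tissue each cadherin is known for. A line joins the values of 1 gene and the dashed line is the level filter at 5.13. The lines of Cdh2, Cdh11 and Cdh3 are nearly flat, those of Cdh1, Cdh4 and Cdh10 are higher on the left, and that of Cdh6 is lower on the left.

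The mesenchymal cadherins differed little. Cdh2, which encodes N-cadherin, the classical cadherin of mesenchymal and neural cells, had 9.51 on the β-catenin siRNA array and 9.53 on the control array. Its difference of -0.02 was well inside the local SD of 0.18, and it was 0.02 after lowess centring, so it had no settled direction. Cdh11, a type II cadherin first known from osteoblasts and also made by fibroblasts, had 11.51 on the β-catenin siRNA array and 11.61 on the control array. Its difference of -0.10 was also smaller than its local SD of 0.16.

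Probe sets that name Cdh11, alone or with other genes, differed in direction. Beside its own probe set, 3 others are annotated to Cdh11 together with 6820431F20Rik and 2610005L07Rik, and they were left out of the comparison because they name several genes. The first of them had 10.27 on the β-catenin siRNA array and 10.11 on the control array, a difference of 0.16. The second had 9.75 on the β-catenin siRNA array and 9.54 on the control array, a difference of 0.21. The last had 8.49 on the β-catenin siRNA array and 8.25 on the control array, a difference of 0.24. All 3 were thus slightly higher, with a mean of 0.20, where the probe set annotated to Cdh11 alone was slightly lower. Signal from the other genes cannot be told apart from Cdh11 in them.

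The epithelial cadherins differed from each other. Cdh1 encodes E-cadherin, the adherens junction cadherin of keratinocytes and other epithelial cells. It had 5.98 on the β-catenin siRNA array and 5.23 on the control array, a 1.69-fold higher signal, with a local SD of 0.23. The control value lay close to the level filter, so the fold rests on a dim signal. Cdh3 encodes P-cadherin of basal epidermis and the hair follicle. It had 7.84 on the β-catenin siRNA array and 7.77 on the control array, and the difference of 0.08 was inside its local SD of 0.19. In the RefSeq table Cdh3 and Cdh1 are neighbours on chromosome 8 with no other protein-coding gene between them.

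Other keratinocyte markers were mostly higher alongside Cdh1. Of 19 measured markers (cadherins not among them), 12 were kept, and 11 of these were higher by any amount, 5 by at least 1.5-fold and none lower by that much. Over all kept genes, 4670 of 10197 were higher by any amount and 2.76% by at least 1.5-fold. Cldn1, a tight junction claudin, was 3.32-fold higher, and its control value of 4.96 did not reach the filter. Epcam, 1.41-fold higher, also passed the filter only on the β-catenin siRNA array, so both were bound to count as higher. Lamb3 passed only on the control array. The basal keratin genes Krt5 and Krt14 were 2.02-fold and 1.54-fold higher, Krt17 1.73-fold and Krt79 1.54-fold. Krt14 had 8.65 on the β-catenin siRNA array and 8.03 on the control array. Among kept markers Sfn (0.08) and Itgb4 (0.02) differed little and Lamb3 was lower (-0.12). Over all 19 measured markers, 15 were higher, 3 lower and 1 equal. Besides Lamb3, the lower ones were Krt15 (-0.55) and Krtdap (-0.44), both under the filter on both arrays. The median was 0.45 over the kept markers, 0.40 where both values had to reach the filter and 0.21 over all measured ones. Their summed linear signal was 1724 on the β-catenin siRNA array and 1154 on the control array. Trp63, the transcription factor that defines stratified epithelium, had 4.62 on the β-catenin siRNA array and 4.61 on the control array, both under the filter. The differentiation markers Krt1, Krt10, Ivl and Krtdap were under the filter on both arrays as well. In these bulk cultures, a change in the number of cells of a type cannot be told apart from a change in RNA per cell. The part of keratinocyte content in the Cdh1 difference was not tested.

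Factors that act on Cdh1 showed no difference of that size. The 8 repressors of Cdh1 transcription that were listed (Snai1, Snai2, Zeb1, Zeb2, Twist1, Twist2, Tcf3 and Tcf4) were all kept, and none differed by 1.5-fold. Their differences ran from -0.34 for Twist1 to 0.25 for Snai2, with Tcf4 at -0.25 and Zeb2 at -0.15 and a median of -0.05. Of 11 epithelial transcription and splicing factors, 9 were under the filter on both arrays. The kept ones were Klf4, at 0.25, and Klf5, at -0.35.

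The vascular cadherins were dim and differed little. Cdh5, which encodes VE-cadherin of endothelial junctions, had the identical value of 4.30 on the β-catenin siRNA array and on the control array, equal to 5 decimals and under the filter. Such equal pairs were frequent among dim genes, at 10.6% of genes under the filter and 1.37% of kept genes, so the 0 is not a precise measure of no change. Cdh13 encodes T-cadherin, an atypical member held in the membrane by a glycosylphosphatidylinositol (GPI) anchor, with no cytoplasmic tail for β-catenin and known from vessels. It had 5.32 on the β-catenin siRNA array and 5.15 on the control array, a difference of 0.17 against a local SD of 0.27. Both values were barely above the filter. Of 15 endothelial markers, 12 were under the filter on both arrays, among them Pecam1 and Tie1. The kept ones, Flt1 (0.53), Kdr (-0.51) and Egfl7 (-0.16), differed in both directions. Kdr was kept only through its control value, and the median of the kept markers, -0.16, was 0.19 where both values had to reach the filter. The list's summed linear signal was 339 on the β-catenin siRNA array and 341 on the control array.

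The cadherins known mainly from nervous system and kidney held the widest spread. Cdh4 encodes R-cadherin, a classical cadherin first described in retina. It had 6.05 on the β-catenin siRNA array and 4.98 on the control array, a 2.11-fold higher signal, with a local SD of 0.23. The control value was under the level filter.

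Cdh6 and Cdh10 are type II cadherins of 1 cluster and differed in opposite directions. Cdh6 encodes K-cadherin, known from fetal kidney and neural crest derivatives. It had 6.35 on the β-catenin siRNA array and 7.11 on the control array, a 1.70-fold lower signal (58.9% of control), with a local SD of 0.21. Both values were above the level filter. Cdh10, a cadherin of brain, had 6.40 on the β-catenin siRNA array and 5.83 on the control array. It was 1.49-fold higher, just short of 1.5-fold, with a local SD of 0.24. Its difference of 0.57 became 0.59 after median centring and then passed that size. Cdh4 and Cdh10 thus stood higher and Cdh6 lower after β-catenin siRNA, and the median of 0.57 over these 3 genes hides opposite directions.

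Cdh6 and Cdh10 lie on chromosome 15 with only Cdh9 between them among protein-coding genes of the RefSeq table. Their promoter windows are shown because these neighbours differed in opposite directions and because β-catenin is recruited to DNA by TCF/LEF factors. Each window runs from 250 bases before to 50 after a RefSeq start in GRCm38.p6, chr15:13173626-13173925 on the minus strand for Cdh6 and chr15:18820079-18820378 on the plus strand for Cdh10. Windows are reported for 3 of the 10 cadherins, the third being Cdh15. The promoters of the other cadherins were not examined, so nothing is said about matches in them. Capitals mark matches on either strand to CTTTG followed by AA, AT, TA or TT, words that TCF/LEF factors are known to bind.
Cdh6: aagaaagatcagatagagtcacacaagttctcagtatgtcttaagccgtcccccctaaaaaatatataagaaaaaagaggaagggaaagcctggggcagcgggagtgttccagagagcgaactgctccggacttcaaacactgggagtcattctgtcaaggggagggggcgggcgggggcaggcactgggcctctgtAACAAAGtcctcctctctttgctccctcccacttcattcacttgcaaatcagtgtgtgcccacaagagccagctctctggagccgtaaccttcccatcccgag
Cdh10: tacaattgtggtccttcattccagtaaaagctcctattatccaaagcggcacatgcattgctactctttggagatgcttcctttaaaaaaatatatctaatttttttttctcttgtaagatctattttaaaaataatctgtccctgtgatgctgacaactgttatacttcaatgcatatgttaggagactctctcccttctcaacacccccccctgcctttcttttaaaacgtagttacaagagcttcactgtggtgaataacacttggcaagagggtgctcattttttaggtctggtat
The Cdh6 window held 1 match, to CTTTGTT on the opposite strand, at positions 198 to 204. The windows of Cdh10 and Cdh15 held none. Of 32851 promoter windows of the same length, 16.9% held at least 1 match. A match is a description of letters and not a binding site.

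Cdh15 encodes M-cadherin of skeletal muscle precursors. It had 3.80 on the β-catenin siRNA array and 3.69 on the control array, both under the filter, and its difference of 0.11 was inside a local SD of 0.28. Of 16 skeletal muscle markers, 15 were also under the filter on both arrays, including Myod1, Myog and Pax7. The kept marker was Actc1, at -0.43. Actc1 had 6.72 on the β-catenin siRNA array and 7.15 on the control array and was the brightest muscle marker. With it, the muscle markers summed to 373 on the β-catenin siRNA array and 416 on the control array in linear signal.

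**Figure D2:**
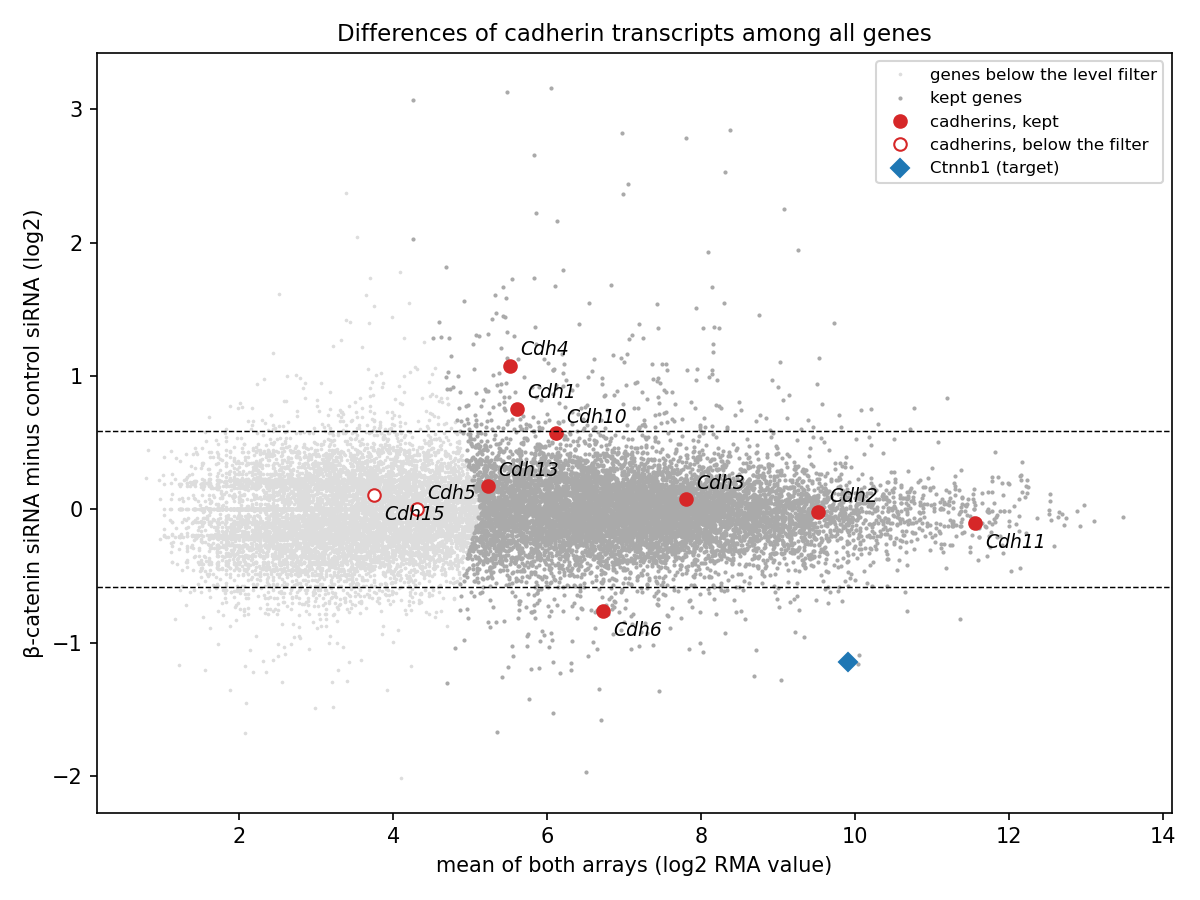
Difference (β-catenin siRNA minus control siRNA, log2) against the mean of both arrays (log2 RMA value) for 19938 genes. Red points are the 10 cadherins, open where under the level filter, the diamond is Ctnnb1 and dashed lines mark 1.5-fold. Cdh4 and Cdh1 lie above the upper line, Cdh10 lies just under it at 0.57, Cdh6 lies below the lower line at -0.76, and Cdh2 and Cdh11 lie near 0.

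By structural type, the 5 classical type I genes had a median difference of 0.11 and ran from Cdh2 at -0.02 to Cdh4 at 1.08. The 4 type II genes had a median of -0.05 and ran from Cdh6 at -0.76 to Cdh10 at 0.57. Type I genes at least 1.5-fold different (Cdh1 and Cdh4) were higher, and the type II gene (Cdh6) was lower. This split rests on the cutoff, since type II Cdh10 was higher and just short of 1.5-fold. Cdh4 passed the level filter only on the β-catenin siRNA array. These groups are small and their difference was not tested. By tissue, the medians over all measured genes were 0.42 for the 2 epithelial, 0.09 for the 2 vascular and -0.06 for the 2 mesenchymal cadherins. The mesenchymal median was 0.09 with Cdh11 taken from its shared probe sets.

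The remaining numbered cadherins were mostly dim. Of 13 others, 11 were under the filter on both arrays, and their median over all 13 was 0.0. Cdh26, known in human from epithelial cells, had 5.15 on the β-catenin siRNA array and 4.25 on the control array, a 1.87-fold higher signal that passed the filter only on the first. Cdh24 had the identical value of 5.50 on both arrays. All 7 measured desmosomal cadherin genes were under the filter, with a median of 0.13. The Schwann cell cadherin gene Cdh19 was at 1.61 on the β-catenin siRNA array and 1.83 on the control array. Of 7 Schwann markers measured, 6 were under the filter on both arrays. The kept one was Egr2, also an immediate early gene, at 6.48 on the β-catenin siRNA array and 5.83 on the control array. The list, with Egr2 its brightest gene, summed to 221 on the β-catenin siRNA array and 181 on the control array.

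Among the more distant members of the superfamily that were listed, 3 kept genes passed 1.5-fold, all higher after β-catenin siRNA. Of 12 non-clustered protocadherin genes, 4 were kept. Pcdh9 had 8.04 on the β-catenin siRNA array and 6.95 on the control array, a 2.13-fold higher signal. Pcdh19, whose protein forms an adhesion complex with N-cadherin in zebrafish, had 7.02 on the β-catenin siRNA array and 6.03 on the control array, a 1.99-fold higher signal. Pcdh7 (0.13) and Pcdh18 (0.09) differed little. Of 11 measured Fat, Dachsous, Celsr and calsyntenin genes, 6 were kept, with a median of 0.33 against 0.19 over all 11. Clstn2, a calsyntenin, had 7.10 on the β-catenin siRNA array and 6.07 on the control array, a 2.05-fold higher signal. The giant cadherin genes Fat1 (0.35) and Fat4 (0.33) and Dchs1 (0.32), which encodes the ligand of Fat4, were each less than 1.5-fold different. Unlike Cdh4 and Cdh26, Pcdh9, Pcdh19 and Clstn2 were above the filter on both arrays.

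More of the catenin and junction partner genes were slightly lower than higher. Of 18 kept catenin and junction partner genes, 13 were lower and 5 higher by any amount, with a median of -0.09. The list holds the siRNA target Ctnnb1 itself. Besides Ctnnb1, only Ctnnd2 (δ-catenin, known from neurons) passed 1.5-fold in this list. It had 4.28 on the β-catenin siRNA array and 5.33 on the control array, and so passed the filter only on the control array. Vcl (vinculin, which binds α-catenin under tension) differed by -0.42 and Ptprf, a receptor phosphatase of junctions, by -0.30. Jup encodes γ-catenin, which can take the place of β-catenin on cadherin tails. It is named here after its value was seen, and had 8.37 on the β-catenin siRNA array and 8.11 on the control array. Ctnnd1 (p120-catenin, which keeps cadherins at the membrane), also named after its value was seen, had 9.05 on the β-catenin siRNA array and 8.83 on the control array. Both differences were under 1.5-fold.

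Genes for cadherin processing and turnover showed no difference of 1.5-fold among 11 measured, all kept, with a median of 0.05. The sheddase genes Adam17 and Adam10 differed by 0.41 and 0.25. Cbll1, which encodes the E-cadherin ubiquitin ligase Hakai, differed by 0.36, and Numb, an endocytic adaptor, by -0.25. These are transcripts, and cadherin protein at the membrane was not measured.

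**Figure D3:**
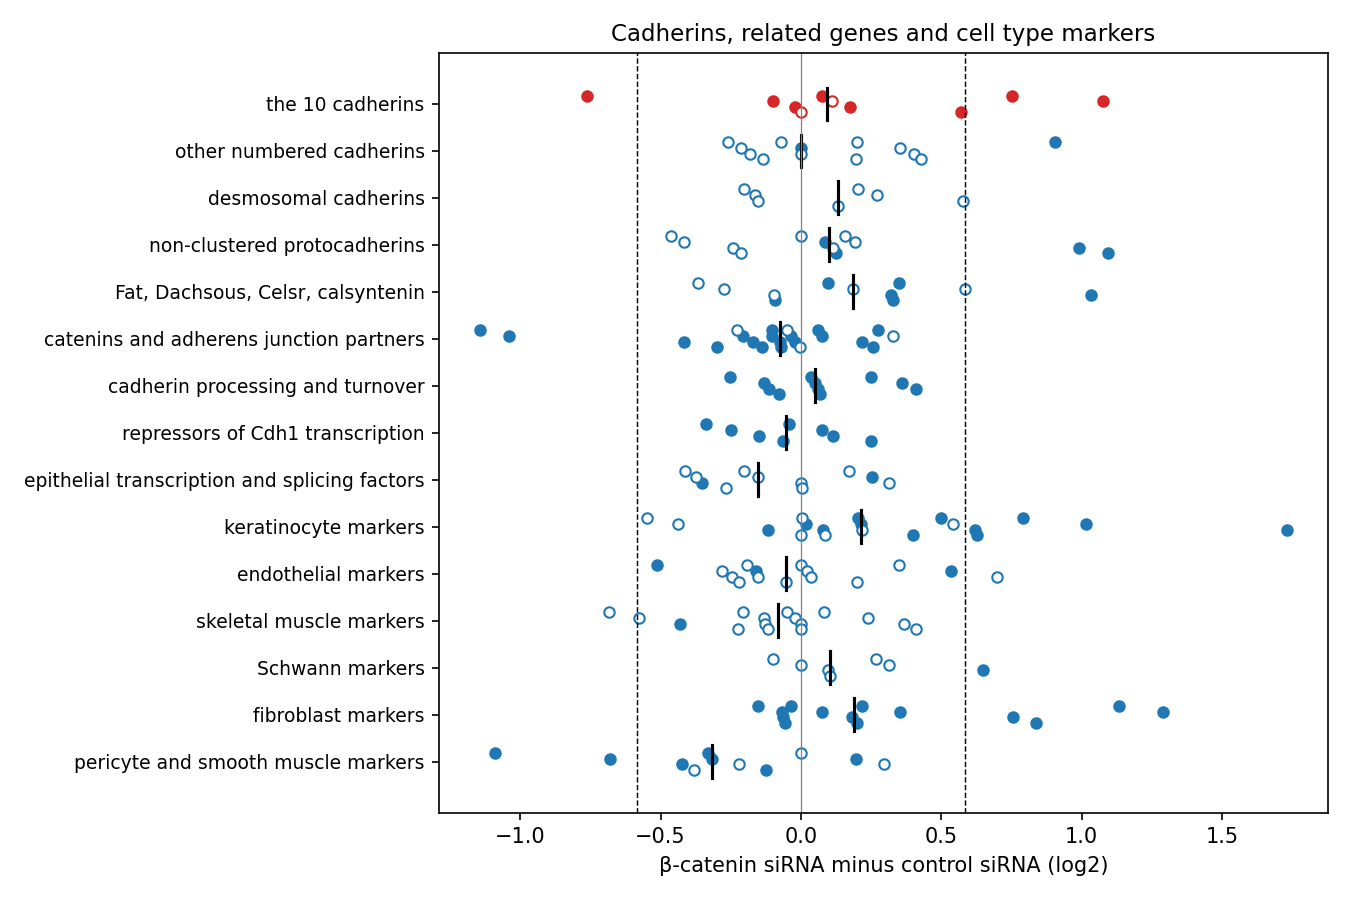
Difference (β-catenin siRNA minus control siRNA, log2) of each measured gene in lists of cadherins, related genes and cell type markers. Filled points were kept, open points were under the level filter on both arrays, black bars are medians over all measured genes and dashed lines mark 1.5-fold. The 10 cadherins spread from -0.76 to 1.08, keratinocyte markers lie mostly to the right of 0, and the repressors of Cdh1 transcription all lie within 1.5-fold.

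Markers of further cell types were set beside the cadherins. Melanocytes carry E-cadherin and P-cadherin, and of 8 melanocyte markers 3 were kept, Tyrp1 (-0.38), Pmel (-0.27) and Dct (-0.01). They summed to 196 on the β-catenin siRNA array and 221 on the control array in linear signal. Pericytes and smooth muscle cells carry N-cadherin and T-cadherin. Of 11 of their markers 7 were kept, 6 lower and 1 higher by any amount. Cnn1 was 2.13-fold and Myh11 1.60-fold lower, and Cspg4 was higher, at 0.20. Rgs5, Kcnj8, Abcc9 and Higd1b were under the filter on both arrays. That list summed to 12350 on the β-catenin siRNA array and 14971 on the control array. Its brightest genes were Acta2 (12.86 on the β-catenin siRNA array, 12.98 on the control array) and Tagln (11.75 and 12.08). Of the 14 kept fibroblast markers, 9 were higher and 5 lower by any amount, with a median of 0.19. Those at least 1.5-fold higher numbered 4, Lum (2.44-fold), Dpt (2.19-fold), Dcn (1.79-fold) and Pdgfra (1.69-fold), and none was that much lower. The part of cell composition in the cadherin differences was not tested.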

How the data were processed

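Gene expression was measured on 2 Affymetrix whole-transcript arrays from 300 ng of total RNA each, per the labels' protocols. The authors deposited 1 log2 value per probe set, made with RMA, per the submitters' processing notes. That the scale is log2 was judged from the range, 0.485 to 13.5. RMA equalises the arrays and shrinks differences of dim probe sets. Array number and dim signal limit the precision here.

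Of 28944 probe sets, 21789 had 1 gene symbol in the platform annotation. Symbols were updated by gene identifier through a RefSeq table of GRCm38.p6. The probe set with the highest mean stood for a gene. Sizes of 1.5-fold and 2-fold were counted with no test. Of 201 listed symbols, 193 were matched. Genes named were the 10 cadherins, Ctnnb1, up to 4 kept genes with the largest absolute difference per list, and defining markers at low levels. Jup, Ctnnd1 and further list members were named outside this rule, after their values were seen. A planned naming of the genes nearest to a cadherin in level was dropped, since it sets levels of different probe sets against each other. The cadherins and lists were chosen with earlier results of these data known. The counting was tested on simulated data. Alternatives were lowess (span 0.3) and median centring, other probe set choices and other level filters. Python 3.11.15, pandas 2.3.3 and statsmodels 0.14.6 were used.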

Additional observations from a re-analysis of the deposited data

How the results depend on the processing

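With 1 array per group, no replicate could be left out. No paired analysis was possible because each group had a single array and no test was made. The differences of Cdh1 (0.75 to 0.77), Cdh4 (1.08 to 1.10) and Cdh6 (-0.76 to -0.74) kept their direction and stayed past 1.5-fold after lowess and median centring. The other alternatives could not move them, since each cadherin has 1 probe set, and could only leave them out. After median centring 3 cadherins in place of 2 were at least 1.5-fold higher, because Cdh10 passed. The level filter moved the counts further. Where both values had to reach the median, Cdh4 dropped out, which left 1 cadherin at least 1.5-fold higher and 0 past 2-fold, and the median of the nervous system and kidney genes became -0.10. Where the higher value had to reach the 75th percentile of gene means, 7.12, Cdh1, Cdh4 and Cdh6 all dropped out, the counts higher, lower and past 2-fold were each 0, and the epithelial median was that of Cdh3 alone, 0.0769. That filter left 129 genes higher and 100 lower by 1.5-fold over all genes, against 281 and 188 with the filter used and 444 and 469 without one. Taking Cdh11 from its 3 shared probe sets, an alternative chosen after seeing the data, gave 0.20 in place of -0.10. Detection calls were not used here.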
